A study of Rattus norvegicus with 6 samples.

Results

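The remaining circle of Willis of a rat model of intracranial aneurysm (IA) was described by itself, from the 3 control artery libraries among the 6 libraries of the series. These 3 were chosen by their label, and no value of the IA lesions entered any result. Each library came from a separate animal, named here animal 1, 2 and 3, so that the spread given below is a spread between animals. The rats were female Sprague-Dawley, bought at an age of 10 weeks. They underwent removal of the ovaries and ligation of the left carotid, right external carotid, right pterygopalatine and left renal arteries, and then received a diet that held 0.12% of the lysyl oxidase blocker 3-aminopropionitrile and 8% salt. At day 63 after surgery by the labels (day 56 by the study's methods for animals) the ring of arteries was stripped from the base of the brain. The unruptured lesion of the anterior or posterior communicating artery was taken away, and polyadenylated RNA of the rest was sequenced. The tissue therefore came from operated, hypertensive animals that had each formed an IA, and neither an unoperated artery nor the same artery at an earlier time was analysed here. The paper also reports that nearly every rat of this model forms lesions where the anterior cerebral and olfactory arteries part. It does not say whether such lesions stayed in the remaining arteries.

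The circle of Willis joins the internal carotid and basilar arteries beneath the hypothalamus and the pituitary stalk. Its wall holds a thin endothelium, a media of contractile smooth muscle and an adventitia of fibroblasts, and the vessels run in the subarachnoid space, wrapped by the leptomeninges (pia and arachnoid). The leptomeninges are made by fibroblast-like cells that secrete prostaglandin D synthase, retinoid-handling proteins and insulin-like growth factor binding proteins, and border-associated macrophages live among them.

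The table held 22081 genes, of which 18108 had a count in any of the 3 libraries, 16415 had a count in all 3 and 3973 had none. The libraries held 68345446, 65823027 and 67965490 counts in animals 1, 2 and 3, and 3 counts in a library corresponded to 0.0439 to 0.0456 CPM (counts scaled to the library total), which is taken as the floor of detection. These limits cover counting error only. Abundance is given as TPM (transcript counts scaled by gene length, with a sum of 1000000 in each library), so that genes can be compared with each other. A mean of at least 1 TPM was reached by 13129 genes, here called expressed, of at least 10 TPM by 7815, of at least 100 TPM by 1180, of at least 1000 TPM by 134 and of at least 10000 TPM by 6. Across the expressed genes, log2(TPM + 1) correlated between libraries at a Pearson r of 0.975 (animals 1 and 2), 0.969 (animals 1 and 3) and 0.963 (animals 2 and 3). By this correlation none of the 3 libraries stood apart, but it says little about single lists, some of which differed widely between animals (below). In a bulk tissue, fewer cells of a type and less RNA per cell cannot be told apart. Markers of a vessel wall were found, since Acta2 and Myh11 of smooth muscle and Cdh5 and Vwf of endothelium were expressed in all 3 animals (values below). These genes do not set an artery apart from other vessels. All 12 genes of the arterial endothelial list were expressed as well (below), against 59.5% of all genes. Of 9 genes placed on the Y chromosome, 8 had no count in any library and Kdm5d had 6, 4 and 3 counts, while Ddx3y, which the table places on chromosome 13, had 29, 30 and 24 counts.

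A small number of genes took most of the transcripts. The 127 most abundant genes held 50% of the mean TPM, and 117, 140 and 120 genes were needed for it in animals 1, 2 and 3. The 25 most abundant held 32.4 ± 0.949% (SD, n = 3). They comprised 11 mitochondrially encoded genes, 3 ribosomal protein genes and Ptgds in the first place. The 13 protein genes of the mitochondrial chromosome took 14.5%, 14.4% and 16.6% of the TPM in animals 1, 2 and 3 (15.2 ± 1.25%, SD, n = 3). Mt-cox3, a subunit of cytochrome c oxidase, was the highest of them with 24323, 22722 and 29865 TPM, followed by Mt-co1 (18590.1, 26517 and 24630.1 TPM) of the same enzyme, Mt-atp6 (21571, 18760.1 and 24994 TPM) of the ATP synthase and Mt-cyb (19309, 20138 and 20980.5 TPM) of the cytochrome bc complex. Mt-co2, Mt-nd1, Mt-nd2, Mt-nd4, Mt-nd3, Mt-atp8 and Mt-nd6 also ranked among the 25, with means between 3970 and 18242 TPM. The 106 gene models of ribosomal proteins took 12.3%, 10.2% and 12.96%, with the lowest share in animal 2, and 42 of them stood among the 100 most abundant genes. Rpl41 (6429.97 ± 851 TPM), Rplp1 (4866 ± 498 TPM) and Rps29 (4838 ± 624 TPM) were the highest (mean ± SD, n = 3 animals, here and below).

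**Figure D1:**
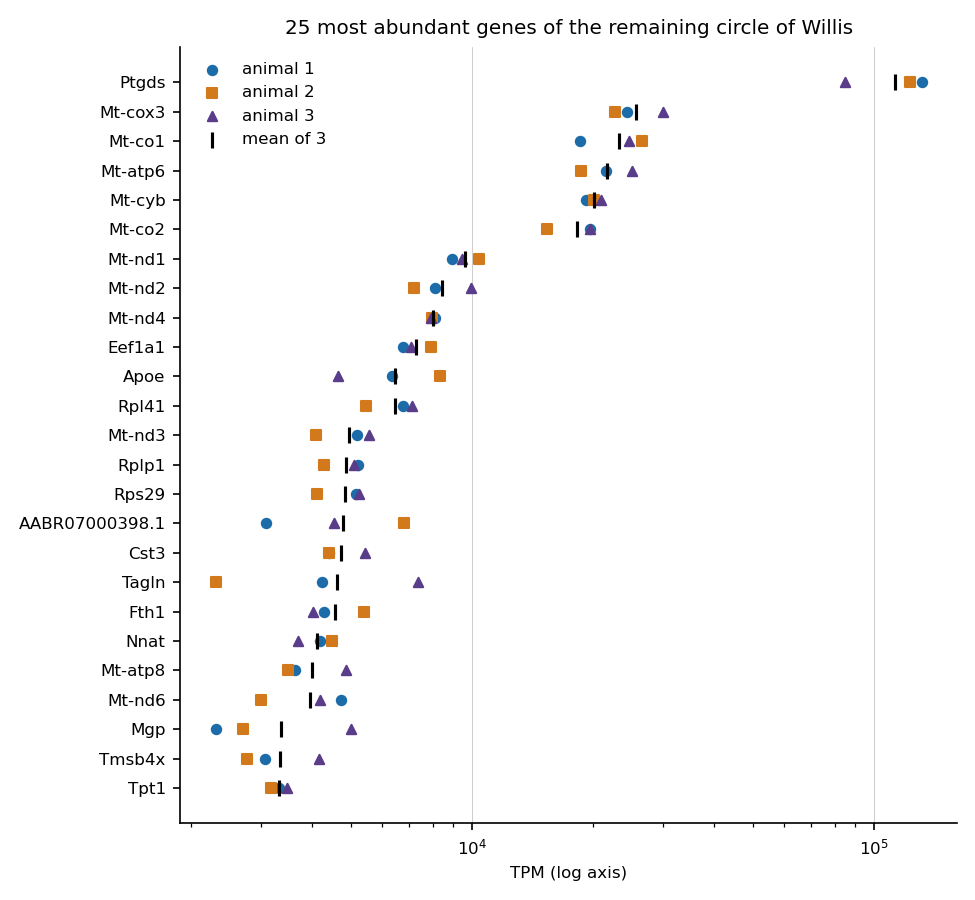
TPM (x, log axis) of the 25 genes with the highest mean in the remaining circle of Willis, with a symbol for each animal and a black bar at the mean of 3. Ptgds stands apart at 85063 to 131776 TPM, mitochondrially encoded genes fill most of the next places, and Tagln has the widest relative spread of the 25, from 2307 TPM in animal 2 to 7349 TPM in animal 3.

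Ptgds, which encodes the lipocalin-type prostaglandin D synthase secreted into the cerebrospinal fluid by leptomeningeal cells, was the single most abundant transcript. It reached 131776, 123170 and 85063 TPM in animals 1, 2 and 3 and so held 13.2%, 12.3% and 8.51% of all TPM in these libraries. Animal 3 had the lowest level. The mean was 113337 ± 24860.5 TPM, against 25637 ± 3748 TPM for the next gene, Mt-cox3, and Ptgds was above Mt-cox3 in all 3 animals. The gene lies on the minus strand at chromosome 3:2686123-2689084 of Rnor6. The 250 bases before its start are shown because no other nuclear gene came near this level, as RefSeq gives them for the build GRCr8 at chr3:28682979-28683228, minus strand, written 5′ to 3′ towards the start of the gene, with matches to searched motifs in capitals.

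Ptgds: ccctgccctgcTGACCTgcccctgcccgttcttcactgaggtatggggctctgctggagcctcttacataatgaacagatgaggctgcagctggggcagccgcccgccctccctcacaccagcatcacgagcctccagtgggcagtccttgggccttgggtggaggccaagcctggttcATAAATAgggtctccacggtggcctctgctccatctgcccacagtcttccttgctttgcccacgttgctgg

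The capitals mark the TATA-like letters ATAAATA, which begin 71 bases before the start, and TGACCT, 239 bases before it. TGACCT is the reverse complement of AGGTCA, a short motif that many nuclear receptors read. On either strand, ATAAATA occurred in 5.56% and AGGTCA in 14.1% of the 33469 RefSeq promoter windows of 250 bases. A match describes letters and is no binding site by itself.

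Of the other nuclear genes among the 25 most abundant, Eef1a1, which carries aminoacyl-tRNA to the ribosome, averaged 7251 ± 609 TPM, and Tpt1, a translationally controlled protein, 3318 ± 155 TPM. Apoe, the lipid carrier made by macrophages, astrocytes and vascular cells, had 6348, 8349 and 4649 TPM and was highest in animal 2. Cst3, the secreted protease inhibitor cystatin C, had 4405, 4408 and 5417 TPM, and the ferritin heavy chain gene Fth1 had 4281, 5404 and 4034 TPM. The abundant smooth muscle gene Tagln (transgelin, which binds actin) had 4232, 2307 and 7349 TPM, a range of more than 3-fold between animals 2 and 3. Mgp, the matrix Gla protein that restrains calcification of the arterial media, had 2318, 2705 and 5019 TPM and was likewise highest in animal 3. Nnat (neuronatin), an imprinted gene known from the brain, had 4200.1, 4481 and 3693 TPM, which made it far more abundant than any other gene of the hypothalamic list below. Tmsb4x, the actin-sequestering thymosin, averaged 3332 ± 745 TPM. AABR07000398.1, a gene model on chromosome 1:11963836-11968939 that is not annotated further in the files, had 3076, 6776 and 4545 TPM.

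The next places, named after their values were seen and leaving aside mitochondrial, ribosomal and unnamed models, again mixed vessel and meninges. Vim, the intermediate filament of mesenchymal cells, had 2812, 3586 and 3154 TPM. Acta2, the smooth muscle actin, had 2731, 1773 and 4548 TPM, and Myl9, a myosin light chain, 2491, 1422 and 4571 TPM. Among secreted proteins, Igfbp2 had 2470.2, 3279 and 2129 TPM, Clu (clusterin) 2229.9, 3132 and 2072 TPM, the growth factor gene Igf2 2523, 2072 and 2589 TPM and Sparc (osteonectin) 2058, 2669 and 2397 TPM. Csrp1, a LIM protein of smooth muscle, had 1890.1, 1021 and 3186 TPM. The order of animals thus differed between these genes, with Csrp1, Acta2 and Myl9 lowest in animal 2 and Igfbp2 and Clu lowest in animal 3.

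The contractile apparatus of the media was abundant and differed between the animals. All 24 genes of the contractile smooth muscle list were expressed, against 59.5% of all genes. Of them 15 were at 100 TPM or more, against 5.34% of all genes. Their summed TPM was 15327, 9390.2 and 25129 TPM in animals 1, 2 and 3 (16615 ± 7948 TPM). After Tagln, Acta2 and Myl9 came the myosin light chain gene Myl6 (1146, 1052 and 1573 TPM), the tropomyosin gene Tpm2 (1039, 594 and 1576 TPM) and the intermediate filament gene Des (685, 384 and 1077 TPM). Myh11, the smooth muscle myosin heavy chain, had 618, 246 and 743 TPM, and the thin-filament protein gene Cnn1 (calponin) 311, 149 and 568 TPM. Mylk, the kinase that starts contraction, had 109, 69.1 and 169 TPM, and Pln (phospholamban, the brake of the calcium pump) 101, 47.3 and 177 TPM. Myocd, the coactivator that drives this programme in smooth muscle, was at 2.69, 1.56 and 3.51 TPM, the lowest of the list. The list was highest in animal 3 for 23 of the 24 genes, against 28.9% of all expressed genes, and lowest in animal 2 for 22, against 27.3%. The level differed at least 2-fold between the highest and lowest animal for 18 of the 24, against 13.1% of all expressed genes. Filip1l (56.5, 60.7 and 93.2 TPM) departed from this order in being lowest in animal 1. The median member was 0.02, -0.65 and 0.58 from its own mean in animals 1, 2 and 3 on the log2(TPM + 1) scale, beside -0.02, 0.04 and -0.03 over all expressed genes. Pituitary and neuronal lists were also highest in animal 3 (below), and their part in this order was not tested.

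Matrix genes of the wall did not share a common order of animals. Eln (elastin) followed the contractile genes with 250.3, 157 and 493 TPM, whereas Fbln1 (fibulin), the most abundant of the elastic fibre list, ran the other way with 416, 643 and 252 TPM. Efemp2, which helps lysyl oxidase to reach elastin, had 207, 253 and 214 TPM, and Loxl1, a lysyl oxidase relative that 3-aminopropionitrile inhibits, had 156, 150.3 and 192 TPM. Fbn1, the microfibril protein fibrillin, had 20.3, 27.3 and 28.4 TPM, and Lox itself 18.9, 26.4 and 37.9 TPM. The 13 measured genes of elastic fibres summed to 1407, 1615 and 1644 TPM, a spread of 8.30% (CV) between animals. Fibrillar collagens were led by Col3a1 (474, 651 and 498 TPM) and Col1a1 (363, 449 and 334 TPM), with Col6a2 (329.8, 346 and 300.1 TPM) and Col6a1 (161, 183 and 136 TPM) of microfibrillar collagen next, and the 11 measured collagen genes summed to 1511, 1859 and 1442 TPM. Basement membrane genes summed to 3032, 3638 and 3440.3 TPM, of which Sparc held 70.5%. Col18a1 (228, 212 and 267 TPM), Lamb2 (212, 174 and 175 TPM) and Nid1 (97.8, 139.5 and 116 TPM) followed Sparc, and the network collagen genes were at 115, 80.8 and 147 TPM (Col4a1) and 70.3, 57.9 and 85.4 TPM (Col4a2). The small proteoglycan and secreted matrix list summed to 15290.2, 17874 and 19726 TPM, led by Cst3, Mgp, Vim and Clu. Vim is a filament inside cells and Cst3 a protease inhibitor, so this is not a sum of matrix proteins alone. Of its proteoglycans, Bgn (biglycan) was at 1148, 1068 and 1586 TPM and Dcn (decorin) at 406, 626 and 645 TPM. Enzymes that cross-link or fold collagen were led by the chaperone gene Serpinh1 (551, 589 and 488 TPM) and by P4hb (329, 373 and 373 TPM), Pcolce (198, 309 and 178 TPM) and Loxl1, and all 16 of them summed to 1592, 1883 and 1615 TPM.

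Endothelial genes summed to similar levels in the 3 animals. The 21 measured endothelial genes were all expressed, against 59.5% of all genes. They summed to 1297, 1369 and 1467 TPM (1378 ± 85.4 TPM), a CV of 6.20%. Cldn5, the tight junction protein of barrier endothelium, led with 404, 370.2 and 502 TPM, followed by Slc2a1, the glucose transporter of brain endothelium (128, 189.5 and 73.3 TPM), and Eng (122, 109.8 and 125 TPM) and Esam (102, 83.2 and 148 TPM). Cdh5 (the cadherin of endothelial junctions) had 94.4, 117 and 60.9 TPM and Vwf (von Willebrand factor) 96.7, 95.7 and 88.7 TPM. Their members did not move together, since 14 of 21 were highest in animal 3, against 28.9% of all expressed genes, while Slc2a1, Cdh5 and Slco1a4 (70.1, 89.2 and 52.1 TPM) were highest in animal 2. Genes that mark arterial endothelium were less abundant and summed to 191, 174 and 338 TPM, and 11 of 12 were highest in animal 3. Gja4, a gap junction protein of arterial endothelium and also of smooth muscle, had 79.7, 52.4 and 136 TPM, Gja5 9.16, 19.8 and 34.3 TPM, and the arterial transcription factor gene Hey2 17.5, 12.97 and 39.1 TPM. Sema3g had 20.6, 23.05 and 37.2 TPM and Efnb2, the arterial ephrin, 13.4, 13.1 and 20.2 TPM. Mural and pericyte genes summed to 1048, 1186 and 1107 TPM. They were led by Vtn (vitronectin, 326, 539.9 and 209.8 TPM), Rgs5 (145, 272 and 193 TPM), Mcam (184, 96.3 and 292 TPM) and the receptor gene Pdgfrb (149.99, 107 and 155 TPM). Mcam and Cspg4 (43.2, 15.9 and 51.9 TPM) followed the contractile genes, whereas Vtn and Rgs5 were highest in animal 2.

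Receptors and channels that set arterial tone were measured for 30 genes, of which 26 were expressed, against 59.5% of all genes. They summed to 412, 321 and 599 TPM. Ramp1, the accessory protein of the calcitonin gene-related peptide receptor, was the highest with 116, 74.999 and 174 TPM, while its partner Calcrl had 5.37, 6.19 and 4.80 TPM. P2rx1, the ATP-gated channel of arterial smooth muscle, had 50.1, 28.8 and 94.5 TPM, Itpr1, the calcium release channel of the endoplasmic reticulum, 37.1, 34.3 and 31.4 TPM, and Pde5a, which degrades cyclic GMP, 32.996, 30.2 and 32.1 TPM. Of the soluble guanylate cyclase, which responds to nitric oxide, Gucy1b3 had 18.1, 16.4 and 29.5 TPM and Gucy1a3 20.2, 12.2 and 30.7 TPM. Kcnmb1, the smooth muscle subunit of the large-conductance calcium-activated potassium channel, varied most of the expressed members, with 12.9, 7.95 and 49.4 TPM, and its pore subunit Kcnma1 had 3.80, 3.36 and 7.87 TPM. Among endothelin receptors Ednra (14.3, 15.1 and 20.7 TPM) stood above Ednrb (8.51, 9.73 and 9.75 TPM) in all 3 animals. Pde3a (16.3 ± 3.25 TPM), Adra2a (13.98 ± 4.24 TPM) and Adra1b (9.46 ± 1.68 TPM) lay between these. Below them came Npy1r, a neuropeptide Y receptor that was highest in animal 3 (4.90, 5.26 and 16.98 TPM), Htr1b (8.16 ± 2.55 TPM), Kcna5 (6.69 ± 1.88 TPM), Cacnb2 (6.51 ± 1.69 TPM), the thromboxane receptor gene Tbxa2r (6.31 ± 2.66 TPM) and Cacna1c, the pore of the L-type calcium channel (5.96, 3.77 and 6.40 TPM). Trpc6 (2.88 ± 1.35 TPM), Ptgir (2.45 ± 0.199 TPM), Ptger4 (1.58 ± 0.752 TPM), Agtr1a (1.23 ± 0.288 TPM) and Ryr2 (1.17 ± 0.436 TPM) were among the lowest expressed members. Along this order of means the ranges over the 3 animals of each gene and the next overlapped, for all 26 expressed genes. Agtr1b, Htr2a, Adra1d and Adra1a did not reach a mean of 1 TPM, with 0.946 ± 0.773 TPM, 0.819 ± 0.642 TPM, 0.278 ± 0.182 TPM and 0.249 ± 0.0873 TPM. In this list 18 of 26 were highest in animal 3, against 28.9% of all expressed genes, and 17 were lowest in animal 2, against 27.3%.

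**Figure D2:**
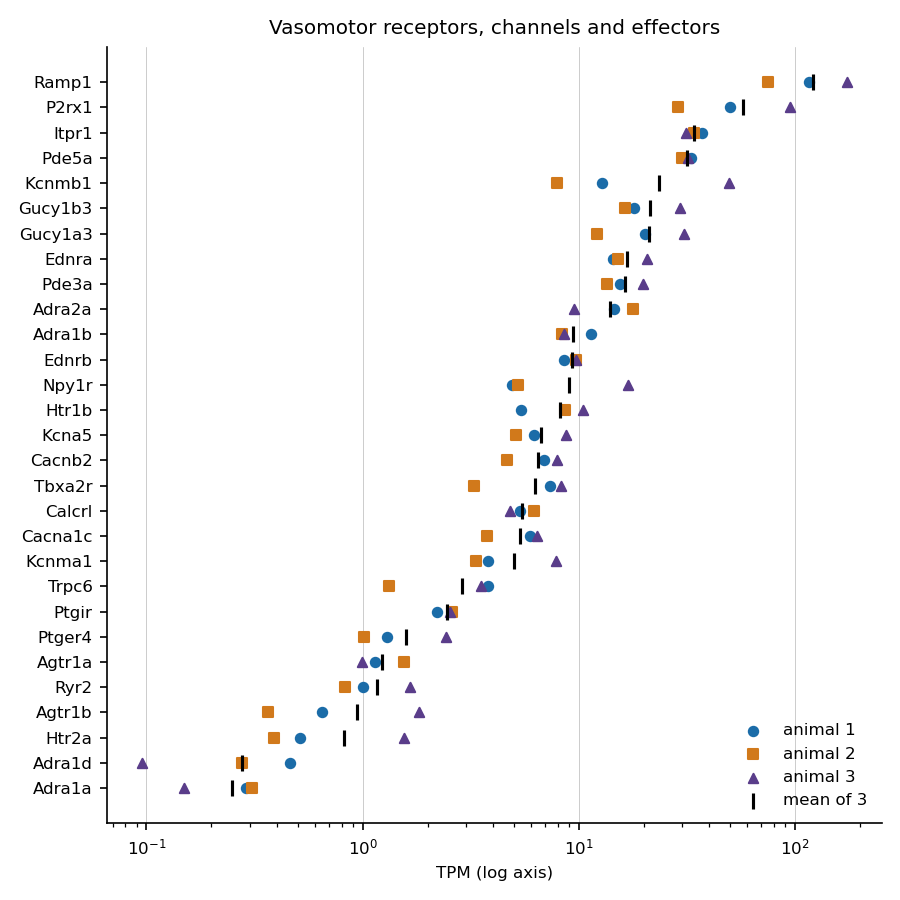
TPM (x, log axis) of measured vasomotor receptors, channels and effectors in the order of their mean, with a symbol for each animal and a black bar at the mean of 3. Ramp1 leads with up to 174 TPM, Kcnmb1 has a spread from 7.95 TPM in animal 2 to 49.4 TPM in animal 3, and the last 4 genes lie below 1 TPM on average.

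Leptomeningeal fibroblast genes made up the largest list of all, because of Ptgds. All 31 gene models of the list were expressed, against 59.5% of all genes, and 21 reached 100 TPM, against 5.34%. The list summed to 146174, 141022 and 96476 TPM, and Ptgds held 88.6% of it. Without Ptgds it summed to 14399, 17852 and 11412 TPM. Igfbp2 and Igf2 came next (values above), then Apod (apolipoprotein D), which stood out in animal 2 with 885, 2698 and 941 TPM. Among genes of retinoid handling, Crabp2_2, a gene model of a retinoic acid binding protein, had 736, 990.1 and 634 TPM and Aldh1a2, which makes retinoic acid, 518, 739.9 and 315 TPM. Islr had 750.3, 865 and 432 TPM, and Bmp6, a bone morphogenetic protein, 359.9, 432 and 169 TPM. Of the connexins of the meninges, Gjb6 had 539.7, 561 and 319.7 TPM and Gjb2 353, 333 and 203 TPM. The carriers Slc13a3 (dicarboxylates, 797, 747 and 446 TPM), Slc6a13 (GABA, 656, 580.5 and 460.2 TPM), Slc22a8 (organic anions, 621, 665 and 349.5 TPM), Slc13a4 (sulfate, 449, 493 and 208 TPM) and Slc22a6 (organic anions, 387, 367 and 215 TPM) each had their lowest level in animal 3. In this list 21 of 31 models were highest in animal 2, against 43.6% of all expressed genes, and 26 were lowest in animal 3, against 38.5%. The median member was 0.09, 0.36 and -0.49 from its own mean in animals 1, 2 and 3 on the log2(TPM + 1) scale. Nov (169, 233 and 383 TPM) and Crym (2.73, 7.56 and 28.98 TPM) went against this order and were highest in animal 3.

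Arachnoid barrier genes, which mark the tight cell layer that closes the subarachnoid space, summed to 1026, 1343 and 878 TPM. Of 20 measured genes 19 were expressed, against 59.5% of all genes. Cldn11, a claudin shared with oligodendrocyte myelin, had 279, 462 and 278 TPM, the signalling gene Wnt6 196, 147 and 109 TPM, Slc5a5, the iodide transporter, 73.02, 141 and 67.1 TPM, and Slc47a1, an organic cation exporter, 59.1, 93.5 and 86.8 TPM. Cdh1, the epithelial cadherin of this layer, had 54.05, 47.7 and 32.5 TPM, and Upk3b had no count in any library. General fibroblast genes summed to 1869, 2431 and 1797 TPM, with Gsn (gelsolin, 449, 773 and 435 TPM), Igfbp6 (503, 571 and 393 TPM), Clec3b (256, 372 and 249 TPM) and Pdgfra (117, 143 and 76.5 TPM) in front. Pi16, a marker of adventitial fibroblasts, had 100.3, 50.3 and 76.8 TPM.

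Transcription factors of the cranial mesenchyme were expressed, and the Hox genes were nearly silent. Zic2 (139, 177 and 73.8 TPM) and Zic1 (95.9, 117 and 62.97 TPM), known from the meninges and the dorsal neural tube, were the highest of the meningeal and neural crest list. Prrx2 (69.04, 77.5 and 79.9 TPM), Foxc1 (65.02, 51.9 and 56.7 TPM), Foxc2 (58.1, 59.2 and 47.7 TPM) and Foxd1 (48.3, 41.97 and 46.97 TPM) followed, of which the Foxc factors act in cranial mesenchyme and the meninges. Of 37 measured factors 28 were expressed, against 59.5% of all genes, and the list summed to 950.2, 994 and 783 TPM. Hand2, Meox1, En1 and Lmx1b lay at 0.0346, 0.121, 0.0749 and 0.0721 TPM on average. The Hox genes, which pattern the hindbrain and trunk, were measured as a family. Of 39 Hox gene models 24 had no count in any library, beside 3973 of all 22081 genes. None of them reached a mean of 1 TPM, and the highest, Hoxb2, averaged 0.654 TPM. All Hox models together had 197, 28 and 270 counts in animals 1, 2 and 3.

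**Figure D3:**
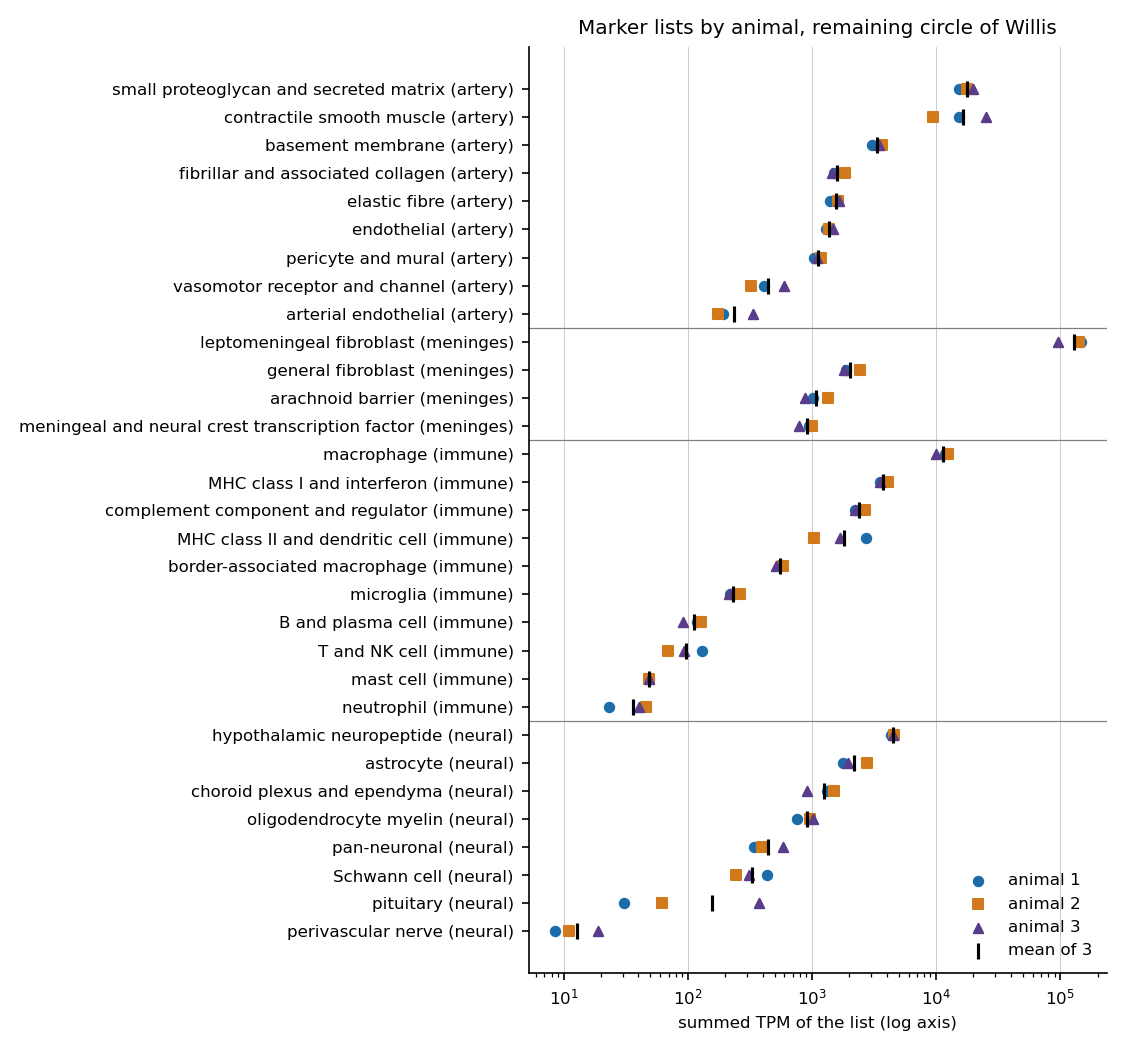
Summed TPM (x, log axis) of the artery, meningeal, immune and neural lists in each animal, with a black bar at the mean of 3 and grey lines between the classes. The leptomeningeal list lies highest at 96476 to 146174 TPM, the contractile list spreads from 9390 TPM in animal 2 to 25129 TPM in animal 3, and the pituitary list from 30.7 TPM in animal 1 to 374 TPM in animal 3.

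Among the immune lists the macrophage list was the largest. It summed to 11754, 12417 and 10057 TPM, of which Apoe, also made by other cells, held 56.5%. Without Apoe it summed to 5407, 4068 and 5408 TPM. Lyz2 (lysozyme) had 1722, 867 and 1898 TPM, and the cathepsins, which other cells share, 1186, 1249 and 953 TPM (Ctsb) and 391, 467 and 454 TPM (Ctsd). The signalling adaptor genes were at 289, 233 and 319 TPM (Fcer1g) and 270.2, 211 and 301 TPM (Tyrobp). Of the macrophage-made starter of the complement cascade, C1qc had 308, 214 and 279 TPM, C1qa 289.9, 188 and 305 TPM and C1qb 223, 169 and 189 TPM. Of the 21 measured genes 16 were lowest in animal 2, against 27.3% of all expressed genes, Apoe not among them. Cd68, a lysosomal protein of macrophages, had 39.3, 47.02 and 42.7 TPM, and Csf1r, their growth factor receptor, 127, 71.6 and 115 TPM. Border-associated macrophage genes summed to 554, 590.1 and 511 TPM, with Gas6 (178, 177 and 211 TPM) and Dab2 (114, 170.3 and 83.1 TPM) shared with vessel and meningeal cells, and with the more restricted Clec10a (65.3, 65.3 and 63.9 TPM), Folr2 (41.3, 33.8 and 38.7 TPM), Pf4 (24.1, 32.5 and 30.7 TPM) and Mrc1 (10.7, 15.8 and 16.2 TPM). Microglial genes were lower and the list summed to 220.01, 265 and 214 TPM, of which Olfml3 (109.9, 161 and 95.3 TPM), also made by fibroblasts, held 52.4%. The microglial receptor gene P2ry12 had 10.3, 5.98 and 12.1 TPM, the chemokine receptor gene Cx3cr1 20.8, 5.02 and 20.5 TPM and Tmem119 8.24, 8.47 and 10.6 TPM.

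Antigen presentation genes of MHC class II were unevenly spread over the animals. The list had 2736, 1048 and 1684 TPM, a CV of 46.8%. The CV of the macrophage list was 10.7%, and 15.6% without Apoe. The median CV of single expressed members was 37.9% for the class II list and 24.4% for the macrophage list. Cd74, the invariant chain, had 1515, 502 and 906 TPM, and the class II chain gene RT1-Ba 377, 168 and 285 TPM. Of the other chains, RT1-Db1 had 317, 131 and 154 TPM and RT1-Da 217, 97.4 and 163 TPM. The genes of the MHC class II and dendritic cell list were highest in animal 1 for 11 of 13 expressed models, against 27.5% of all expressed genes, and lowest in animal 2 for 9, against 27.3%. T and NK cell genes followed the same animals at a low level. Cd4, which rat macrophages also carry, had 57.8, 29.2 and 40.7 TPM, Cd8a 10.1, 3.23 and 6.64 TPM, and Cd3e, a chain of the T cell receptor complex, 7.43, 3.21 and 4.39 TPM. The list summed to 131, 68.7 and 92.4 TPM, and 10 of 12 expressed genes were highest in animal 1. Class I and interferon-inducible genes were abundant and summed to 3543, 4121 and 3534 TPM, led by B2m (1164, 1483 and 1531 TPM), Ifi27 (949, 998 and 769 TPM) and Ifitm3 (619.5, 909 and 572 TPM), with Bst2 next (183, 128 and 141 TPM).

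Other leukocytes left few transcripts. B and plasma cell genes summed to 118, 127 and 91.2 TPM, but Xbp1, used by all secretory cells, held 88.5%, and Cd79a and Ms4a1 averaged 1.42 ± 0.619 TPM and 0.199 ± 0.0755 TPM. The neutrophil list summed to 23.3, 45.7 and 40.4 TPM and only 7 of 18 genes were expressed, against 59.5% of all genes. The calprotectin genes were at 7.87, 11.8 and 10.9 TPM (S100a9) and 5.92, 9.35 and 12.7 TPM (S100a8), and Lcn2, which stressed glia and endothelium also make, had 0.148, 16.7 and 6.77 TPM. Mpo, the myeloperoxidase of neutrophil granules, averaged 0.108 TPM, Elane 0.178 TPM and Ltf 0.00262 TPM. Mast cell genes summed to 49.1, 49.1 and 48.8 TPM, mostly from Kit (33.2, 36.01 and 19.01 TPM) and Gata2 (10.3, 9.02 and 20.9 TPM), which other cells express, while the mast cell proteases Tpsab1, Cpa3 and Cma1 averaged 0.345, 0.290 and 0.194 TPM. Complement components and regulators were abundant beside this and summed to 2228, 2670.3 and 2236 TPM. Serping1, the inhibitor of the first complement step, had 451, 702 and 461 TPM, C1r, a protease of that step, 134, 283 and 155 TPM, and Cd59, which protects cells from lysis, 166, 164 and 205 TPM. The gene model C4a_2 had 67.6, 190.5 and 57.9 TPM and may share reads with near-identical copies, so that its level is uncertain.

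Neuronal transcripts were minor in sum and varied widely between animals. The 25 measured pan-neuronal genes summed to 342, 398 and 585 TPM. Eno2 (157, 186 and 120.2 TPM) and Thy1 (99.8, 78.7 and 99.6 TPM) held the largest parts of it on average, and both are also expressed outside neurons. Most of the other genes were highest in animal 3. Uchl1, a neuronal ubiquitin hydrolase, had 7.59, 13.6 and 78.1 TPM, Nrgn (neurogranin) 32.8, 17.9 and 46.4 TPM, and the secretory granule protein gene Chgb 0.786, 5.98 and 43.6 TPM. Snap25, of the synaptic release machinery, had 0.590, 4.43 and 14.02 TPM, and Rbfox3, the neuronal nuclear antigen, 0.309, 1.15 and 2.92 TPM. Of 22 expressed genes 18 were highest in animal 3, against 28.9% of all expressed genes, and 17 were lowest in animal 1, against 34.2%. The median member was -1.13, -0.03 and 1.19 from its own mean in animals 1, 2 and 3 on the log2(TPM + 1) scale, the widest range among the lists with 20 or more expressed members.

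The astrocyte and oligodendrocyte lists summed higher than the pan-neuronal list in all 3 animals, but sums of unlike genes do not rank cell types. The astrocyte list summed to 1795, 2757 and 1952 TPM, led by Glul (glutamine synthetase, 1096, 1753 and 815 TPM), S100b (133, 184 and 341 TPM) and Slc1a3, a glutamate transporter (165, 191 and 107 TPM). Glul alone held 56.3% of the mean sum. Of 16 expressed genes 7 were highest in animal 2, against 43.6% of all expressed genes, and 9 in animal 3, against 28.9%. None was highest in animal 1, and 10 were lowest there, against 34.2%. The median member was -0.58, 0.23 and 0.34 from its own mean in animals 1, 2 and 3 on the log2(TPM + 1) scale. Gfap, the filament of reactive and pial astrocytes, had 69.5, 189 and 151 TPM, and Aqp4, the water channel of their endfeet, 5.15, 10.6 and 17.8 TPM. The oligodendrocyte list summed to 760.5, 957 and 1029 TPM, with the shared genes Cldn11 and Pdgfra (above) and Sirt2 (94.6, 88.1 and 96.3 TPM) in front. Its myelin genes proper were highest in animal 3, with Mbp (myelin basic protein) at 39.4, 28.3 and 202 TPM, and 15 of 18 expressed genes of the list were highest in that animal, against 28.9% of all expressed genes. Genes of peripheral nerve were split between animals 1 and 3 in their highest level, and most were lowest in animal 2. Of 12 expressed genes of the Schwann cell list, 5 were highest in animal 1, against 27.5% of all expressed genes, and 6 in animal 3, against 28.9%. In animal 2, 9 of the 12 were lowest, against 27.3%. Prx (periaxin), of Schwann cells, had 11.5, 3.91 and 6.09 TPM and was among those highest in animal 1. Pmp22, also made by fibroblasts, was even (189.6, 172 and 182 TPM), and the Schwann cell list summed to 433, 244 and 308 TPM. Without Pmp22 the list summed to 244, 71.7 and 126 TPM. Choroid plexus and ependymal genes summed to 1327, 1519 and 919 TPM, of which Rarres2 (chemerin, also made by fibroblasts) held 68.5%. Ttr (transthyretin, the main secretory product of choroid plexus) had 236, 68.02 and 77.2 TPM, Aqp1 123, 264 and 119 TPM and Kcnj13 68.5, 98.6 and 47.7 TPM, while Otx2 and Tmem212 averaged 0.0347 and 0.124 TPM. Genes of the perivascular nerves summed to 8.49, 11.1 and 18.98 TPM, of which the highest was Tac1, the substance P precursor (1.17, 2.40 and 6.23 TPM). Th, of catecholamine synthesis, had 0.520, 0.436 and 2.01 TPM, and Npy 0.541, 0 and 1.29 TPM. Dbh had no count in any library.

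Of the hormone genes of the hypothalamus and pituitary, Avp, Oxt, Cga and Tshb were concentrated in animal 3. The hypothalamic list summed to 4305, 4576 and 4531 TPM, but Nnat held 92.3% of it, and without Nnat it summed to 105, 94.2 and 837 TPM. Avp (vasopressin) had 11.7, 2.48 and 454 TPM in animals 1, 2 and 3 (308, 61 and 12024 counts). Oxt (oxytocin) had 32.9, 1.44 and 189.8 TPM (802, 33 and 4666 counts). Animals 1 and 2 thus held a small part of what animal 3 held of either transcript. Penk, the enkephalin precursor, had 13.8, 22.6 and 60.9 TPM, Pomc, the melanocortin precursor made in hypothalamus and pituitary, 9.97, 9.51 and 19.4 TPM, and Sst (somatostatin) 0.0357, 16.5 and 13.9 TPM. Of the releasing hormones, Crh lay at 0.0428, Ghrh at 0.0798 and Trh at 0.595 TPM on average. Gnrh1_1, a gene model of gonadotropin-releasing hormone, was expressed. The pituitary list summed to 30.7, 62.4 and 374 TPM, and averaged 46.5 TPM without animal 3. Cga, the alpha subunit shared by thyrotropin and the gonadotropins, had 2.13, 23.1 and 191 TPM (65, 662 and 5879 counts), and Tshb, the beta subunit of thyrotropin, 0.391, 6.84 and 65.4 TPM (10, 164 and 1685 counts). Lhb had 1.62, 1.49 and 1.51 TPM, and Fshb averaged 0.0658 TPM. Gh1 (growth hormone), with 3, 33 and 0 counts, and Prl (prolactin), with 2, 7 and 0 counts, did not share the order of Cga and Tshb, and the pituitary factor gene Pou1f1 averaged 0.0375 TPM. Animal 3 also had the highest contractile, neuronal and central myelin levels and the lowest Ptgds level, and whether these moved for a common cause was not tested.

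The 250 bases before the start of Avp, Oxt and Cga are shown because these 3 hormone genes had the highest means among those of the hypothalamus and pituitary that held over 80% of their TPM in animal 3. They come from RefSeq on GRCr8, 5′ to 3′, with matches in capitals, for Avp at chr3:138248523-138248772 (minus strand), Oxt at chr3:138235504-138235753 (plus strand) and Cga at chr5:54283090-54283339 (plus strand).
Avp: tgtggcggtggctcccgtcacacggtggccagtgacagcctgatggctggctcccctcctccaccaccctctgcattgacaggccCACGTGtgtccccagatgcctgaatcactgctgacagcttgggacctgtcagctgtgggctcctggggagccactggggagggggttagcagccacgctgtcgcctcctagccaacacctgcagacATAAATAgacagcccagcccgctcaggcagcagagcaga
Oxt: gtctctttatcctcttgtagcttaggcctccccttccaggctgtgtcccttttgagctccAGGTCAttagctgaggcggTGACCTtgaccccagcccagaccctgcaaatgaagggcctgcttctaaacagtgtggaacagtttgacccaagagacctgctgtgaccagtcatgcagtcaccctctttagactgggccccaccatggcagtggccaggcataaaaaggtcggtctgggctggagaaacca
Cga: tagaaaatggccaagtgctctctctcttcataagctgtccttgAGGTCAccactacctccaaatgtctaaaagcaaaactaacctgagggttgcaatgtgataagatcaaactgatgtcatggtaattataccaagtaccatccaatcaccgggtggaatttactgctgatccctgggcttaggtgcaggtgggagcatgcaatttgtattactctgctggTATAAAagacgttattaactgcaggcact

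In capitals are ATAAATA, 39 bases before the start of Avp, and the E-box letters CACGTG, 165 bases before it, AGGTCA and its reverse complement TGACCT, 190 and 171 bases before the start of Oxt, and TATAAA and AGGTCA, 29 and 207 bases before the start of Cga. On either strand TATAAA occurred in 12.9% and CACGTG in 5.59% of the 33469 promoter windows. Avp and Oxt are neighbours on chromosome 3 and are read from opposite strands. In Rnor6 they lie at chromosome 3:123117492-123119460 and chromosome 3:123106694-123107534.

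Tissues that could be carried along in the dissection were checked by their own lists. The study's methods for animals describe perfusion through the heart with fixative, and whether it was done in the animals sequenced is not clear from the sources used here. Hemoglobin transcripts were present, with Hba-a2_2 at 2289, 725 and 582 TPM, Hba-a2_1 at 958, 288 and 245 TPM and Hbb at 1150.3, 407 and 309 TPM, each highest in animal 1. The erythroid and platelet list summed to 4442, 1453 and 1174 TPM, and averaged 1314 TPM without animal 1. Of the skeletal and cardiac muscle list, the cardiac troponin gene Tnnt2 (535, 388 and 432 TPM) held 94.2% of the sum, and the skeletal actin gene Acta1 had 9.93, 4.62 and 14.9 TPM. Of cartilage and bone only Alpl (108, 78.5 and 88.2 TPM), which meningeal and endothelial cells also use, reached 100 TPM in any animal, and Dmp1 had 9.04, 2.61 and 19.98 TPM. Bglap, which marks bone, was at 8.27, 3.31 and 0.625 TPM. Adipocyte genes other than Cfd (57.2, 79.5 and 56.9 TPM) were low, with Adipoq at 0.345 TPM on average. Keratinised and glandular epithelium summed to 6.96, 5.97 and 10.3 TPM and melanocyte genes to 8.14, 4.95 and 4.81 TPM.

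Immediate early and heat shock genes, which respond within minutes to handling, stretch or heat, had counts in all animals, except for Hsp90aa1 (0, 5926 and 0 counts), and were mostly highest in animal 2. In all, 22 of 26 genes, Hsp90aa1 included, were highest there, against 43.6% of all expressed genes. In animal 1, 21 were lowest, against 34.2%, and these include Hsp90aa1, which was tied at 0 in animals 1 and 3. The list summed to 1085, 1904 and 1505 TPM. Fos had 6.99, 58.9 and 11.7 TPM, Dusp1 50.4, 172 and 104 TPM and Zfp36 62.8, 145 and 76.4 TPM, whereas the matrix-associated Ctgf was highest in animal 3 (197, 381 and 459 TPM). Ier3 (221, 188 and 172 TPM) and Jund (156, 148 and 157 TPM) were nearly even. Genes of the metallothionein and iron list included Hmox1 (heme oxygenase) with 31.7, 298 and 48.6 TPM, the metallothionein genes Mt2A with 74.9, 247 and 99.98 TPM and Mt1 with 77.1, 173 and 74.8 TPM, and the ferritin light chain gene Ftl1 with 2369, 2329 and 1939 TPM. Of its 10 expressed genes 7 were highest in animal 2. Proliferation genes were low and summed to 70.9, 106 and 85.3 TPM, with Pcna at 44.7, 70.7 and 49.8 TPM, Mcm2 at 10.7, 13.6 and 9.94 TPM and the mitotic gene Top2a at 1.03, 1.45 and 1.75 TPM.

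**Figure D4:**
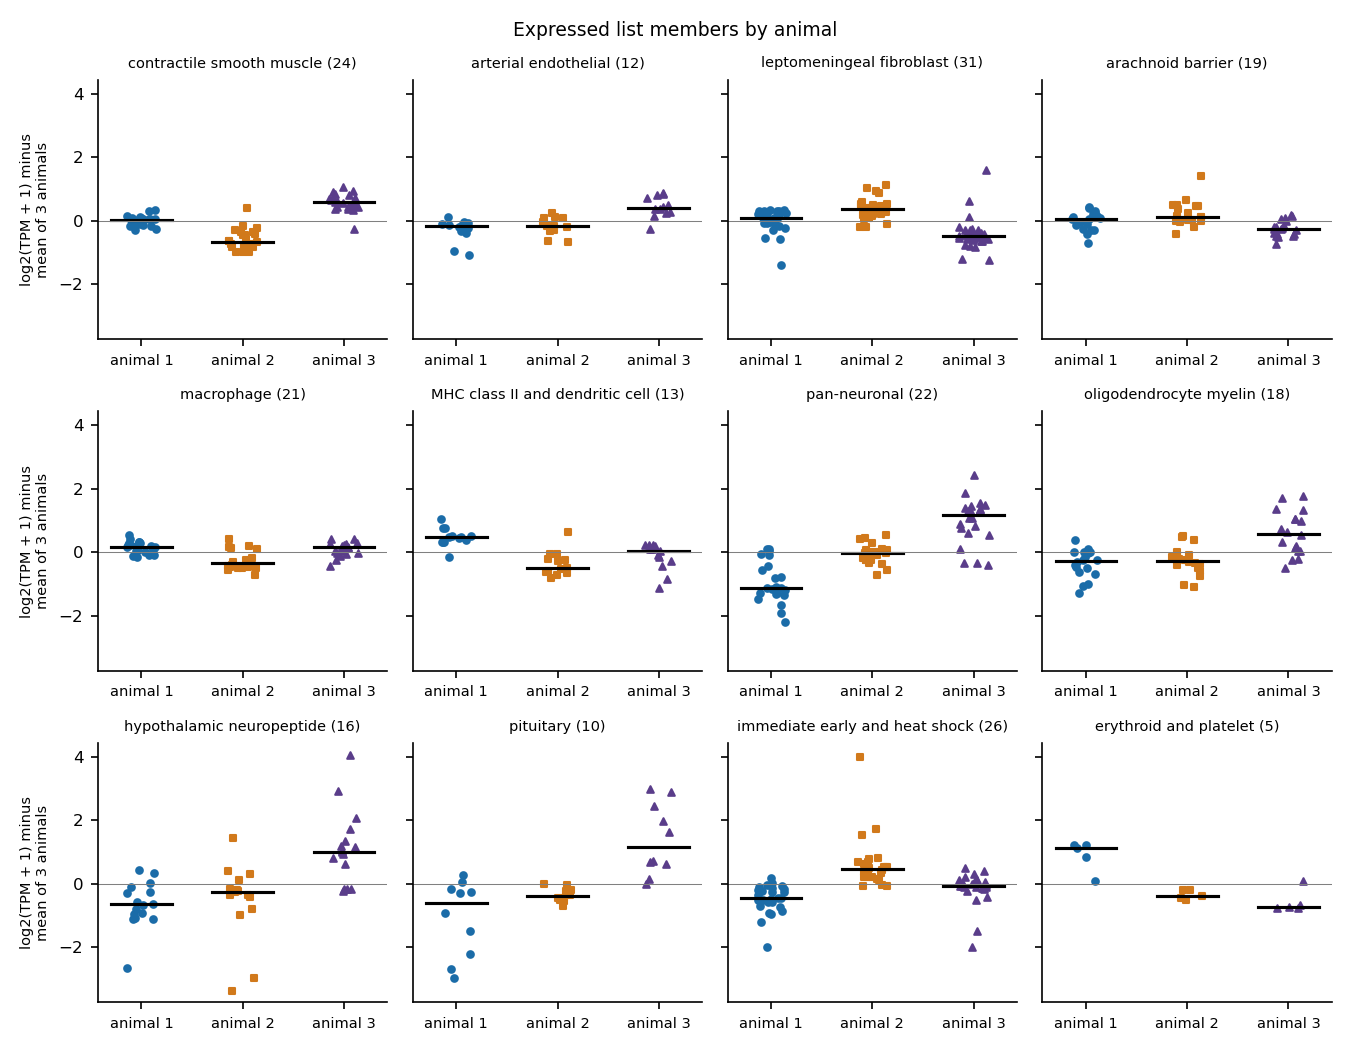
Each point is an expressed member of a list, and its y value is its log2(TPM + 1) in an animal minus its mean over the 3 animals; black bars are medians and the number in a panel title is the number of members. Contractile members lie lowest in animal 2 (median -0.65) and highest in animal 3 (0.58), leptomeningeal members lowest in animal 3 (-0.49), and pan-neuronal members range from -1.13 in animal 1 to 1.19 in animal 3.

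The median spread between animals was larger than counting error over the whole range of abundance. The median coefficient of variation (CV) of the 13129 expressed genes was 15.2% (quartiles 9.10% and 24.9%), while counting alone gave a median of 2.49%. It was 19.8% for genes of 1 to 10 TPM, 11.9% from 100 to 1000 TPM and 14.4% above 1000 TPM. The common dispersion of the 3 libraries in edgeR was 0.0788, which corresponds to a biological CV of 28.1%. The highest animal was at least 1.5-fold above the lowest for 32.5% of expressed genes, and at least 5-fold for 2.19%. Animals 2 and 3 were the furthest apart, with 1185 genes over 2-fold, against 769 between animals 1 and 2 and 797 between animals 1 and 3. Of 571 genes with a mean of at least 10 TPM and a difference of at least 2-fold, 76 were highest in animal 1, 238 in animal 2 and 257 in animal 3.

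**Figure D5:**
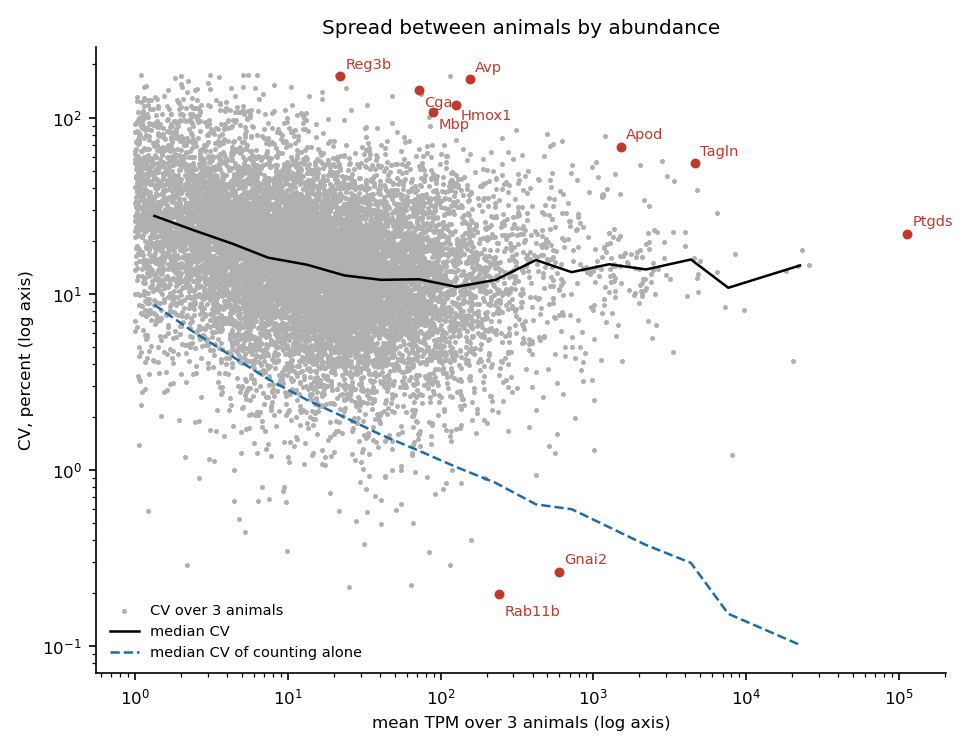
CV over the 3 animals (y, percent, log axis) against mean TPM (x, log axis) for the 13129 expressed genes, with the median CV (solid) and the median CV that counting alone gives (dashed). The median is 19.8% at 1 to 10 TPM and 11.9% at 100 to 1000 TPM while the counting CV falls, and Reg3b, Avp, Cga and Hmox1 lie far above it and Rab11b and Gnai2 far below.

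The 12 genes with the highest CV at a mean of at least 10 TPM each had over 80% of their TPM in 1 library, and no other gene at this level did. These values chose the genes and are given as a description. In animal 3 they were Avp, Oxt, Cga, Tshb and Chgb (above) and Resp18, a protein of neuroendocrine granules, with 6.28, 16.4 and 122 TPM. In animal 2 they were Reg3b, a lectin secreted in tissue injury and infection (0.112, 65.96 and 0.167 TPM), Apold1, an endothelial immediate early gene (2.57, 34.7 and 3.87 TPM), Pla2g2a, a secreted phospholipase of inflammation (4.59, 41.7 and 4.25 TPM), the unannotated LOC100361457 (1.28, 28.8 and 1.60 TPM), and the gene models Rps6_1 (55, 10976 and 1 counts) and Hsp90aa1 (0, 5926 and 0 counts). No gene of this kind was found in animal 1. Other genes that stood out in animal 2, named after their values were seen, were Msln (mesothelin, 22.3, 99.6 and 21.99 TPM) and the chemokine gene Ccl2 (4.64, 21.2 and 6.48 TPM). At the other end, the 5 genes with the lowest CV at a mean of at least 100 TPM were Rab11b, a GTPase of recycling endosomes (241, 242 and 242 TPM, CV 0.197%), Gnai2, an inhibitory G protein subunit (592, 591 and 594 TPM, CV 0.265%), the oxygen sensor gene Egln2 (115 ± 0.332 TPM), the splicing factor gene Hnrnpl (158 ± 0.632 TPM) and the unnamed model ENSRNOG00000047185 (103 ± 0.799 TPM). These 5 were chosen by the CV itself as well. Each CV lay below the counting CV of the same gene (0.752% for Rab11b and 0.413% for Gnai2), so it does not mark the gene as unusually even.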

How the data were processed

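RNA of the remaining circle of Willis of 3 rats was analysed, and the libraries of the lesions entered no result. The authors prepared libraries from 500 ng of total RNA with a stranded kit for polyadenylated RNA, sequenced read pairs and mapped them to Rnor6 in CLC genomics workbench (version 11). CASAVA is named too among the tools in the submitters' notes. The authors deposited 1 table with raw counts of reads per gene and TPM, scaled by gene length and to a fixed total per library, besides RPKM and a scaled CPM, which were not used. Its columns of fold changes and p-values, which hold the authors' comparisons of lesions with arteries, were not used either. Short transcripts, multigene families and overlapping models depend on how that software assigned reads.

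Means, SDs and CVs were computed over 3 animals from the deposited TPM in Python (version 3.11.15), without a test, since a single tissue was described. The counting CV was computed from the deposited counts by the Poisson law. The common dispersion was estimated from the counts by edgeR (version 4.0.16, on R version 4.3.3), with TMM factors and filterByExpr, which kept 14685 genes, and the estimate was tested on simulated data. DESeq2 (version 1.42.0) gave size factors for an alternative. The 42 gene lists held 741 different genes, 706 of them present under their symbol, and a numbered symbol (Rps6_1) is 1 of several gene models of that symbol. The lists and the genes were chosen with earlier results of these data known. Genes named are the 25 most abundant, the up to 4 highest and the first 2 written members of each list, list members at 0 where a list served as a check, the vasomotor list, the 12 highest CVs at 10 TPM or more and any gene there with over 80% of its TPM in 1 library, the 5 lowest CVs at 100 TPM or more, and genes whose sequence is shown. Other list members were named after their values were seen, and some genes that the rule covers are not reported here. Promoter sequences were matched by symbol to RefSeq on GRCr8, for 9676 of the 13129 expressed genes and 8 of the 25 most abundant, and their coordinates were not carried over to Rnor6. Alternatives were leaving out each animal, medians, other scalings, thresholds and pseudocounts, and, chosen after seeing the data, lists without their most abundant member, TPM without Ptgds, the order of animals under other scalings and list means without each animal set against a 1.5-fold limit. The depth was 65823027 to 68345446 counts per library.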

Additional observations from a re-analysis of the deposited data

How the results depend on the processing

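Leaving out 1 animal moved the mean sum of 2 of the 42 lists by over 1.5-fold. The pituitary list averaged 46.5 TPM without animal 3, beside 155.6 TPM over all 3, and the erythroid and platelet list 1314 TPM without animal 1, beside 2356 TPM. The hypothalamic list without Nnat averaged 99.8 TPM without animal 3, beside 345.7 TPM. For the other lists, and for the counts of expressed genes and of genes that held 50% of the TPM, the value moved by less than 1.5-fold. Sums and shares moved with the scaling. Without the mitochondrially encoded genes the ribosomal share was 13.95%, the endothelial list 1625, the hypothalamic list 5271, the macrophage list 13437 and the oligodendrocyte list 1080 TPM, and 222 genes held 50% of the TPM. In CPM, which are not scaled by length, the mitochondrial share was 9.69%, the ribosomal share 5.31%, the endothelial list 2726, the hypothalamic list 3706, the leptomeningeal list 81963, the oligodendrocyte list 1865 and the pan-neuronal list 583.5 CPM, and 498 genes held 50%. Without Ptgds the mitochondrial share was 17.1%, the ribosomal share 13.3%, the endothelial list 1553, the hypothalamic list 5043 and the macrophage list 12897 TPM, and 199 genes held 50%. Without their most abundant member the endothelial list summed to 952.2, the hypothalamic list to 345.7, the leptomeningeal list to 14554, the macrophage list to 4961, the oligodendrocyte list to 575.8 and the pan-neuronal list to 286.99 TPM. These shifts follow from the rescaling or the omission itself. With a threshold of 10 TPM, 7815 genes were counted as expressed. The common dispersion was 0.0599 without animal 3, 0.0879 and 0.0891 without animals 1 and 2, 0.113 without a filter on low counts and 0.0790 with DESeq2-type size factors. The animal with the highest or lowest sum differed between TPM and CPM for 6 of the 42 lists (MHC class I, basement membrane, hypothalamic, melanocyte, meningeal transcription factor and pericyte), and between CPM and CPM under TMM or DESeq2 factors for 3 (astrocyte, mast cell and sex-linked). Genes near 3 counts per library are the least precise. No paired analysis was possible because 1 tissue was described and no groups were compared.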

Other observations

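Carriers of small molecules were covered only in part by the lists. Of 375 solute carrier gene models, named by symbols that begin with Slc or Slco, 248 were expressed (66.1%, against 59.5% of all genes) and 25 had a mean of at least 100 TPM (6.67%, against 5.34%). All of them summed to 10687, 11449 and 8484 TPM in animals 1, 2 and 3, which is 1.02% of the mean TPM for 1.70% of the gene models. After Slc13a3 and Slc6a13, both meningeal, came Slc25a4, the ATP and ADP exchanger of mitochondria, with 503, 617 and 522 TPM. Slc16a11, a monocarboxylate transporter relative, had 403, 391 and 250.4 TPM, and Slc41a1, a magnesium transporter, 269, 269 and 141 TPM. Plasma membrane carriers Slc13a3, Slc6a13, Slc22a8, Slc13a4, Slc16a11, Slc22a6 and Slc41a1 were each lowest in animal 3, whereas the mitochondrial carrier genes Slc25a4, Slc25a3 (277, 348 and 298 TPM) and Slc25a5 (188, 255 and 193 TPM) were lowest in animal 1. These genes were chosen after their values were seen. Olfactory receptor genes were nearly silent, since 1029 of 1106 models had no count in any library, beside 3973 of all 22081 genes. Of these models 4 were expressed, with Olr59 the highest at 11.7 TPM on average.

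A few rows had at least 1000 counts in 1 library and at most 3 in another. Hsp90aa1, a major heat shock chaperone that most cells express, had 0, 5926 and 0 counts in animals 1, 2 and 3. The model Rps6_1 had 55, 10976 and 1 counts, beside 56742, 36969 and 59235 counts for Rps6_2, another model of this ribosomal protein gene on chromosome 5. LOC100911672 had 28, 1588 and 0 counts and RGD1309362 2333, 2222 and 0 counts. Their levels in single libraries are therefore uncertain, and the cause was not tested.

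A group of 5 short models with clone names had closely similar levels. AABR07015055.1, AABR07015066.1, AABR07015078.1 and AABR07015080.2 on chromosome 14 and AABR07063424.1 on chromosome 6 were within a few percent of each other in each animal, for example 807, 1019 and 1598 TPM for AABR07015055.1 and 809.9, 1018 and 1586 TPM for AABR07063424.1. AABR07015055.1 (chromosome 14:46523589-46523999, plus strand) overlaps LOC257642_2 (chromosome 14:46523594-46529375, minus strand), which had 1511, 2453 and 2938 TPM. Whether the counting split reads between these models was not tested, and their levels are uncertain.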
